A study of Mus musculus with 6 samples.

Results

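The genes of store-operated calcium entry were followed in bEnd.3 cells, a mouse brain endothelial line immortalised with a viral oncogene, after exposure to mitochondria from primary mouse astrocytes. The set was fixed by name and holds 9 genes of 55335 identifiers in the files: the pore genes Orai1, Orai2 and Orai3, the sensor genes Stim1 and Stim2, the IP3 receptor genes Itpr1, Itpr2 and Itpr3, and the mitochondrial calcium uniporter gene Mcu. The genes were chosen by function around Orai1, which was selected on its lower FPKM in Mito_T than in Ctrl, so the change of Orai1 is described here without a test. The Mito_T group comprised 3 libraries of cells incubated for 24 h with isolated mitochondria suspended in 100 µl of culture medium, and the Ctrl group comprised 3 libraries of cells given the same volume of medium alone. All cells carried the genotype labelled WT and were grown in high-glucose DMEM with serum. Separate cultures are not stated in the labels for the replicates, and the p-values then describe only the scatter among these 6 libraries, which may be technical. The comparison asks how cells with transferred mitochondria differ from cells without them, in a series on the blood-brain barrier and astrocytes.

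Store-operated calcium entry refills the endoplasmic reticulum after calcium has been released from it. IP3 receptors in the reticulum open in response to receptors coupled to phospholipase C, the STIM proteins sense the fall in stored calcium and move to junctions with the plasma membrane, and there they open channels built of ORAI subunits. ORAI1 is the best-studied pore, while ORAI2 and ORAI3 can join it in mixed channels. Mitochondria near these sites take up part of the calcium through the uniporter, whose pore is MCU. In endothelium, calcium entry of this kind is known to act on contraction, permeability and the transcription factor NFAT.

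Levels are in FPKM, a fragment count corrected for the length of the transcript and the depth of the library, which allows genes of different length to be compared. The FPKM implied 21800000 to 27200000 fragments per Mito_T library and 17000000 to 21100000 per Ctrl library, so the Mito_T libraries were deeper without overlap, and the part that depth played in the results was not tested. Changes are log2 differences of FPKM + 1, Mito_T minus Ctrl, from limma fitted to all 12639 genes with at least 1 FPKM in at least 3 libraries. All 9 genes passed that filter. A gene was called at a Benjamini-Hochberg adjusted p under 0.05 in limma, which held for 1.12% of the genes tested. The endothelial markers Cdh5, Pecam1 and Cldn5 were near 0 in every library, at no more than 0.068, 0.186 and 0.129 FPKM in Mito_T and no more than 0.038, 0.268 and 0.041 FPKM in Ctrl. The labelled endothelial identity is therefore not borne out by these defining genes, whereas the endothelial gene Eng lay at 59.7 to 69.0 FPKM in Mito_T and 55.5 to 64.0 FPKM in Ctrl.

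Of the pore genes, Orai1 is given as a description of the values that chose the set, and Orai2 and Orai3 overlapped between the groups. Orai1 (ENSMUSG00000049686, GRCm38 chromosome 5, 123015074 to 123030456, forward strand) had 6.32, 6.51 and 7.80 FPKM in the Mito_T libraries, against 15.2, 14.8 and 14.9 FPKM in the Ctrl libraries. All 3 Mito_T libraries lay well under all 3 Ctrl libraries, and the Ctrl libraries were almost equal to each other. The mean was 6.88 ± 0.808 FPKM in Mito_T and 15.0 ± 0.187 FPKM in Ctrl (SD, n = 3 each), a ratio of 0.459. On the log2 scale the change was −1.03, which ranks 14 from the lowest among the genes tested. With the exonic length of the gene, the Orai1 values stand for about 326 to 430 fragments in Mito_T and 594 to 725 in Ctrl. In bulk RNA, fewer cells that express a gene and less RNA of it per cell cannot be told apart.

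Orai3 (ENSMUSG00000043964, chromosome 7, 127769815 to 127775150, forward strand), whose product is a subunit that can form its own channel, was the most abundant pore transcript. It had 17.7, 18.0 and 17.8 FPKM in Mito_T, against 18.1, 16.1 and 17.1 FPKM in Ctrl. The groups overlapped, with a log2 change of 0.06 (95% interval −0.08 to 0.19, limma adjusted p = 0.712). Orai2 (ENSMUSG00000039747, chromosome 5, 136147459 to 136170713, reverse strand), known in T cells to dampen the current of mixed channels, had 2.49, 2.35 and 3.02 FPKM in Mito_T and 2.18, 2.67 and 2.99 FPKM in Ctrl. These values also overlapped, and the log2 change of 0.00 had an interval of −0.26 to 0.27 (limma adjusted p = 0.994). The intervals of both genes lie within −0.26 to 0.27. The change of Orai1 chose the set and is no yardstick for them.

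The start regions of the pore genes are shown so that the paralogs can be compared by sequence, each from 250 bases before to 50 bases after the annotated start, in RefSeq for GRCm38.p6. Capitals mark GC boxes, the letters GGGCGG or, on the other strand, CCGCCC, the core recognised by SP1-type factors. The windows are chr5:123014824-123015123 on the forward strand for Orai1, chr5:136170607-136170906 on the reverse strand for Orai2 and chr7:127769565-127769864 on the forward strand for Orai3.
Orai1 promoter: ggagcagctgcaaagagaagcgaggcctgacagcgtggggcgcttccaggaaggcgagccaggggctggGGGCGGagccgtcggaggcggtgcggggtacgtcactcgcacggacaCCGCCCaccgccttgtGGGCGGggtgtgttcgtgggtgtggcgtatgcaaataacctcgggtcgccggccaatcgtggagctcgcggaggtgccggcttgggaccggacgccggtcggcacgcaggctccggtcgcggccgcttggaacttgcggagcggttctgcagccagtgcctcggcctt
Orai2 promoter: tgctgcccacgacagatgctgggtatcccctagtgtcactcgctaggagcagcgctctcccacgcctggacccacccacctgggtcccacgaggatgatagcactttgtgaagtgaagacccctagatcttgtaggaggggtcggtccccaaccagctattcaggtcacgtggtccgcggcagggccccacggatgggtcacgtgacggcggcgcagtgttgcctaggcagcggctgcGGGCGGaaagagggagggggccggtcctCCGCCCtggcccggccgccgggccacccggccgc
Orai3 promoter: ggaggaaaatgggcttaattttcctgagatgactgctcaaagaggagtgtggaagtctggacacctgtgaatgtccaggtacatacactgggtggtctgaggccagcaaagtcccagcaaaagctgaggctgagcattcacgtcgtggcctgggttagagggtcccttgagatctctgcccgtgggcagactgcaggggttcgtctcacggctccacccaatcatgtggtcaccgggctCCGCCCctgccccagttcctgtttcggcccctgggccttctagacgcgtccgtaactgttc

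The Orai1 window holds 3 GC boxes, that of Orai2 holds 2 and that of Orai3 holds 1, and 35.7% of the 32851 windows of this length in the table hold at least 1. The GC content is 70.3% for Orai1, 68.0% for Orai2 and 57.7% for Orai3, where the median window has 52.7%. CpG pairs number 36 in Orai1, 24 in Orai2 and 11 in Orai3. Orai1 does not lead the set in any of these measures: Stim1 holds 8 GC boxes with 38 CpG pairs and a GC content of 78.7%, Itpr2 holds 5 GC boxes, and Stim2 holds 3 with 39 CpG pairs. The core letters bound by NFAT, GGAAA or TTTCC, occur 0 times in the Orai1 window, 1 time in that of Orai2 and 2 times in that of Orai3, and 61.3% of windows hold them. The E-box CACGTG is found 2 times in Orai2 and in neither of the other pore genes, with 7.15% of windows holding it. Each search covered both strands, and the core in Orai2 overlaps a GC box by its GG letters. Promoters were in the table for 8 of the 9 genes, and Itpr1 is named only.

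**Figure D1:**
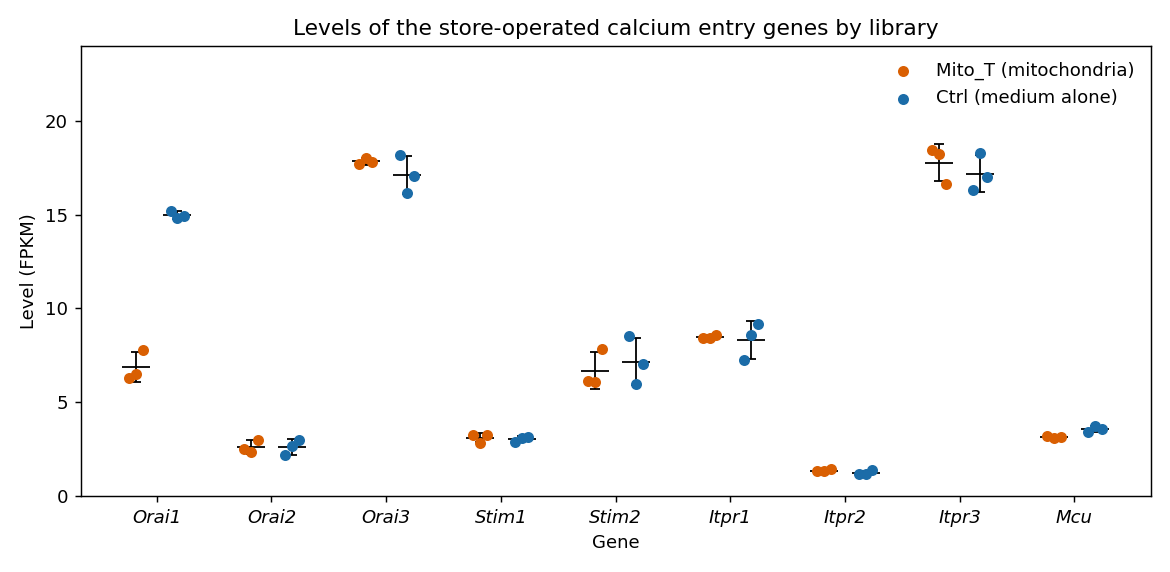
Level in FPKM (vertical axis) of each of the 9 genes in the 3 Mito_T libraries (orange, left) and the 3 Ctrl libraries (blue, right); points are libraries, the black line is the mean and the bar 1 SD. Orai1 is at 6.32 to 7.80 FPKM in Mito_T and 14.8 to 15.2 FPKM in Ctrl. Mcu is the only other gene whose groups do not overlap, where 21.0% of all genes tested do not overlap in either direction.

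The sensor genes showed no difference larger than the spread between libraries. Stim1 (ENSMUSG00000030987, chromosome 7, 102267806 to 102437319), the main activator of ORAI1, had 3.25, 2.84 and 3.26 FPKM in Mito_T, against 2.91, 3.11 and 3.17 FPKM in Ctrl. The log2 change of Stim1 was 0.02 (95% interval −0.15 to 0.19, limma adjusted p = 0.944). Stim2 (ENSMUSG00000039156, chromosome 5, 53998499 to 54121057), which responds to smaller losses of stored calcium, had 6.12, 6.10 and 7.83 FPKM in Mito_T and 8.51, 5.98 and 7.04 FPKM in Ctrl. Its libraries scattered widely within each group, and its interval, −0.41 to 0.24 around a log2 change of −0.09, was the widest of the 9 genes (limma adjusted p = 0.832). Stim2 was the more abundant sensor transcript in every library, at 68.0 ± 2.65% of the summed Stim FPKM in Mito_T and 69.7 ± 4.45% in Ctrl (SD, n = 3 each).

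The IP3 receptor genes, which encode the release channels of the reticulum, also overlapped between the groups. Itpr3 (ENSMUSG00000042644, chromosome 17, 27057304 to 27122223) was the most abundant, with 18.4, 18.2 and 16.6 FPKM in Mito_T and 16.3, 18.3 and 17.0 FPKM in Ctrl. Itpr1 (ENSMUSG00000030102, chromosome 6, 108213096 to 108551109) had 8.42, 8.42 and 8.59 FPKM in Mito_T and 7.23, 8.59 and 9.16 FPKM in Ctrl. Itpr2 (ENSMUSG00000030287, chromosome 6, 146108299 to 146502223) was the lowest of the 9 genes, with 1.32, 1.36 and 1.43 FPKM in Mito_T and 1.18, 1.20 and 1.39 FPKM in Ctrl. The log2 changes were 0.05 for Itpr3 (interval −0.11 to 0.20), 0.03 for Itpr1 (−0.17 to 0.23) and 0.07 for Itpr2 (−0.11 to 0.25), and limma gave them adjusted p-values of 0.816, 0.921 and 0.731. Itpr3 led the family in every library, at 64.3 ± 1.67% of the summed Itpr FPKM in Mito_T and 64.3 ± 2.25% in Ctrl.

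Mcu (ENSMUSG00000009647, chromosome 10, 59446984 to 59616692), the pore of mitochondrial calcium uptake, was the closest to a difference after Orai1. It had 3.22, 3.10 and 3.14 FPKM in Mito_T, against 3.43, 3.74 and 3.58 FPKM in Ctrl. Every Mito_T library was under every Ctrl library, which was so in the lower direction for 11.4% of all genes tested and in either direction for 21.0%. The log2 change of −0.14 (SE 0.06) had an interval of −0.29 to 0.00 and a limma adjusted p of 0.373, so it did not pass.

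**Figure D2:**
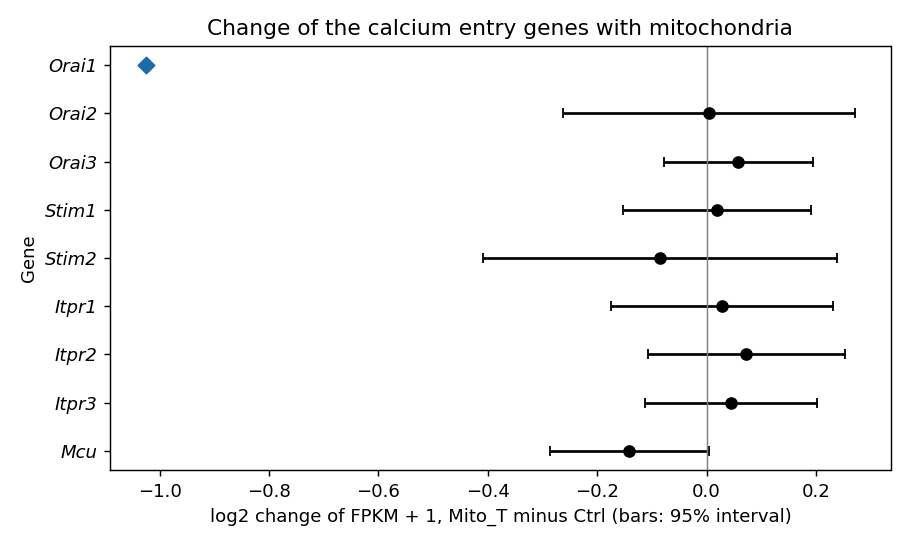
Log2 change of FPKM + 1 (horizontal axis, Mito_T minus Ctrl) of each of the 9 genes, with the 95% interval from limma for 8 of them; Orai1, a blue diamond, chose the set and has no interval. Orai1 stands at −1.03, and the other 8 genes lie between −0.14 and 0.07 with intervals that include 0.

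Of the 8 genes other than Orai1, 0 were called by limma, where 1.12% of all genes tested were called in either direction, and none of the 8 had an unadjusted p under 0.05. Their adjusted p-values ran between 0.373 and 0.994. The median log2 change over the 9 genes was 0.02, and that over all genes tested was −0.01. The intervals of the 8 genes differed in width, with the lowest bound at −0.41 for Stim2 and the highest at 0.27 for Orai2.

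The order of levels placed Orai1 differently in the groups. In Mito_T, Orai3 and Itpr3 came first, followed by Itpr1, then by Orai1 and Stim2, whose ranges overlapped, then by Mcu, Stim1 and Orai2, each overlapping the next, and by Itpr2. In Ctrl, Itpr3 and Orai3 overlapped at the top and Orai1 was the third, above Itpr1 without overlap. Itpr1 and Stim2 overlapped in Ctrl, as did Stim1 and Orai2, while Mcu lay above Stim1.

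Within the pore family Orai3 was the leading transcript in every library, by a wider margin in Mito_T. Orai1 made up 23.8%, 24.2% and 27.2% of the summed Orai FPKM in the Mito_T libraries, against 42.8%, 44.1% and 42.7% in the Ctrl libraries. Orai3 made up 65.3 ± 2.70% in Mito_T and 49.3 ± 1.63% in Ctrl, although its own level overlapped between the groups. The summed Orai level was 27.3 ± 1.15 FPKM in Mito_T and 34.7 ± 0.976 FPKM in Ctrl (SD, n = 3 each). Set against the sensors, there were 2.21 ± 0.237 units of Orai1 FPKM for each unit of Stim1 FPKM in Mito_T, and 4.90 ± 0.286 in Ctrl. These ratios use the Orai1 values that chose the set and are given as a description.

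**Figure D3:**
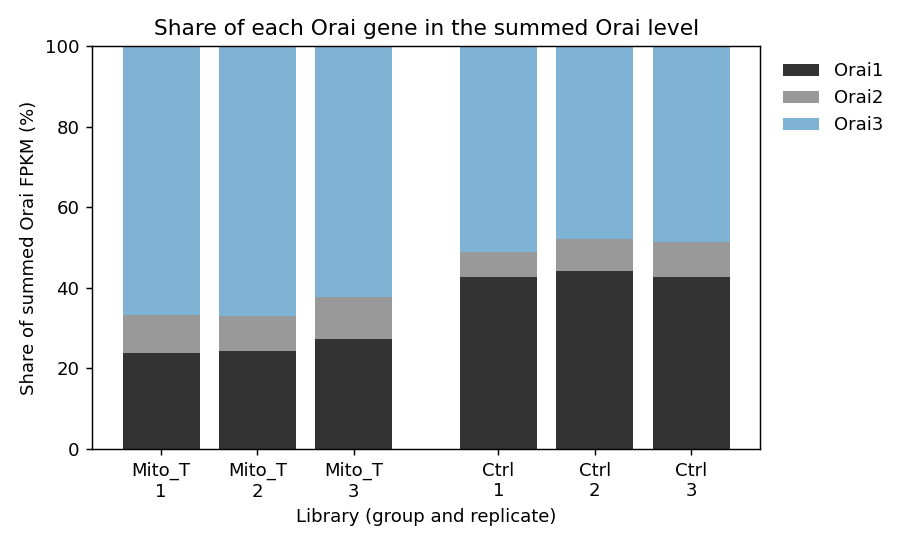
Share of Orai1, Orai2 and Orai3 in their summed FPKM (vertical axis, percent) in each Mito_T library (left) and each Ctrl library (right). Orai1 takes 23.8% to 27.2% in Mito_T and 42.7% to 44.1% in Ctrl.

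Reads of Orai1 could be assigned without its paralogs. None of the 2314 words of 31 bases in the annotated Orai1 transcripts occurs in another annotated gene, and in the other members the share found elsewhere ran up to 1.95%, in Itpr3, where the antisense gene Itpr3os holds most of it. The antisense gene Gm2479, which ends at position 123015080, overlaps the first bases of Orai1, which starts at 123015074. Gm2479 was at 0.127, 0.073 and 0.075 FPKM in Mito_T and 0.142, 0.145 and 0.030 FPKM in Ctrl. The libraries were strand-specific per the labels' protocols, and use of strand in the counting is not given in those sources, so reads from the shared bases may belong to either gene.

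In the chromosomal neighbourhood of Orai1, 1 of the 16 other genes tested within 500 kb of its start was called, lower in Mito_T, where 0.649% of all genes tested were called lower. Tmem120b, which encodes a membrane protein and is the second protein-coding gene on the side of higher coordinates, had 2.05, 2.18 and 2.22 FPKM in Mito_T and 3.06, 3.12 and 3.40 FPKM in Ctrl. All Mito_T libraries were lower, and limma gave a log2 change of −0.41 with an SE of 0.07 and an adjusted p of 0.0487. The call was lost in 10 of the 14 other settings that gave it a value, where adjusted p-values over the 14 ran between 0.0409 and 0.211, and it was lost whichever single library was left out. The log2 change itself stayed between −0.57 and −0.38 in these 14 settings. Morn3, which lies between Tmem120b and Orai1, was under the filter, at 0.090 ± 0.016 FPKM in Mito_T and 0.095 ± 0.034 FPKM in Ctrl. On the other side, the histone demethylase gene Kdm2b was at 3.81 ± 0.222 FPKM in Mito_T and 4.04 ± 0.204 FPKM in Ctrl, and the ubiquitin ligase gene Rnf34 at 7.48 ± 0.171 FPKM in Mito_T and 8.09 ± 0.462 FPKM in Ctrl, and limma gave the pair adjusted p-values of 0.722 and 0.536. Among the 16 genes, log2 changes ran between −0.41 and 0.19, with a median of −0.08.

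**Figure D4:**
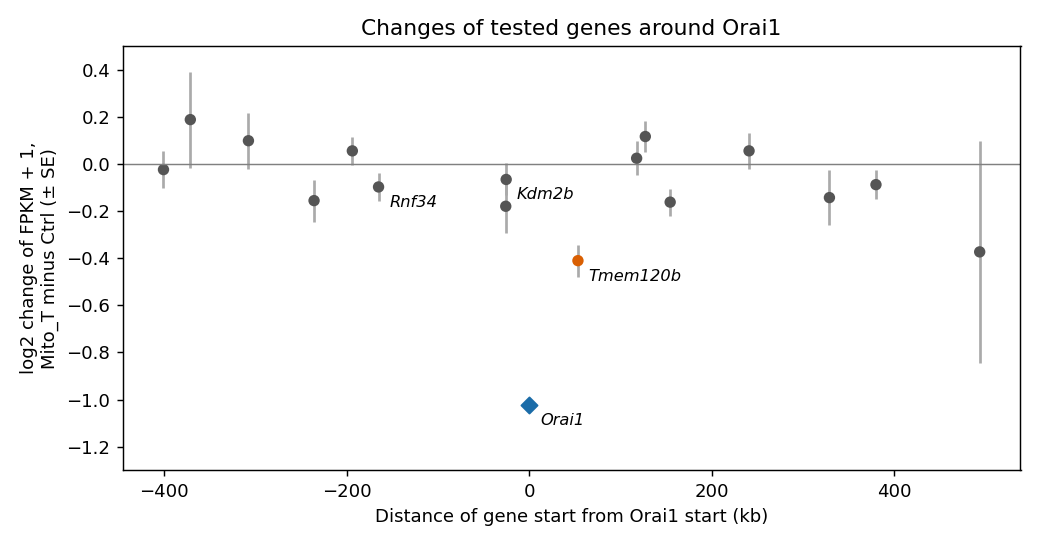
Log2 change of FPKM + 1 (vertical axis, Mito_T minus Ctrl, bars 1 SE, none for Orai1) of the tested genes that start within 500 kb of the Orai1 start, by distance (horizontal axis, kb); orange marks a neighbour called by limma, and the blue diamond is Orai1, whose values chose the set. Orai1 stands at −1.03 and Tmem120b at −0.41, and the other 15 neighbours were not called.

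The wider calcium machinery was examined in 7 lists of 119 genes, of which 78 were expressed highly enough to be tested. None was called by limma in either direction, here or in any of the 15 other settings. Over all genes tested the share called was 1.12%, which also stands beside the counts of each list below. At that share few or none of 78 genes would be called, so the absence of calls is no result particular to these genes. Of the 78 genes, 9 had an unadjusted p under 0.05, that is 11.5% against 13.9% of all genes tested. The groups did not overlap in 18 of the 78 genes, or 23.1%, where all genes gave 21.0%. The median log2 change over the 78 genes was −0.03, and single genes ran between −0.54 and 0.34. The extremes were Itprip and Bok, named after their values were seen, and the groups overlapped in both. Itprip, the lowest, scattered widely, with 1.80, 2.22 and 9.89 FPKM in Mito_T and 10.8, 1.02 and 11.8 FPKM in Ctrl.

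Among partners of STIM and ORAI, 0 of 11 tested genes were called and 1 had an unadjusted p under 0.05, with a median log2 change of −0.02. That gene was Sept4, a septin of the cell cortex, at 22.4 ± 0.597 FPKM in Mito_T and 19.3 ± 0.564 FPKM in Ctrl (limma adjusted p = 0.138). Tmem203, a protein of the reticulum membrane, was at 19.0 ± 0.921 FPKM in Mito_T and 17.1 ± 0.818 FPKM in Ctrl (limma adjusted p = 0.362). The most abundant partners were Pdia3, a disulphide isomerase of the reticulum, at 224 ± 13.0 FPKM in Mito_T and 223 ± 29.5 FPKM in Ctrl, and Ubqln1, a ubiquilin, at 29.6 ± 0.611 FPKM in Mito_T and 31.3 ± 0.125 FPKM in Ctrl.

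In the list of pumps, release channels and calcium-binding proteins of the reticulum, 0 of 11 tested genes were called, 1 had an unadjusted p under 0.05 and the median log2 change was −0.08. Its release channel genes Ryr1, Ryr2 and Ryr3 and its pump genes Atp2a1 and Atp2a3 were under the filter and not tested. The pump gene Atp2a2 was tested and had a log2 change of −0.08. Rcn3, a reticulocalbin, was at 8.41 ± 0.858 FPKM in Mito_T and 11.4 ± 1.97 FPKM in Ctrl (limma adjusted p = 0.228), and Rcn2, a second reticulocalbin, at 9.90 ± 0.854 FPKM in Mito_T and 11.4 ± 0.979 FPKM in Ctrl (limma adjusted p = 0.413). Calr, which encodes the main calcium-storing chaperone calreticulin, was at 209 ± 16.6 FPKM in Mito_T and 240.2 ± 32.1 FPKM in Ctrl, and Tmbim6, a leak-associated membrane protein, at 193 ± 6.82 FPKM in Mito_T and 204 ± 9.65 FPKM in Ctrl. Both had overlapping groups.

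The list of calcium export at the plasma membrane had 0 of 5 tested genes called and 0 with an unadjusted p under 0.05, with a median log2 change of 0.08. That median is the value of Atp2c1, which was listed here although it encodes a pump of the Golgi and not of the plasma membrane. The other tested genes were at 0.24 for Atp2b4, 0.15 for Atp2b1, −0.12 for Slc8a2 and −0.19 for Slc8a1. The pump genes Atp2b4 and Atp2b1 were at 11.1 ± 0.399 and 9.83 ± 0.820 FPKM in Mito_T and at 9.29 ± 1.75 and 8.95 ± 2.30 FPKM in Ctrl. The sodium-calcium exchanger gene Slc8a1 was at 2.38 ± 0.233 FPKM in Mito_T and 2.85 ± 0.247 FPKM in Ctrl, without overlap and with a limma adjusted p of 0.393.

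The other genes of mitochondrial calcium uptake and release gave 0 of 12 called, 1 with an unadjusted p under 0.05 and a median log2 change of −0.04. Tmem65, an inner membrane protein, was at 11.9 ± 0.524 FPKM in Mito_T and 10.3 ± 0.464 FPKM in Ctrl (limma adjusted p = 0.227). Vdac1, the outer membrane channel, and Ghitm, an inner membrane protein, were the most abundant, at 73.7 ± 1.90 and 74.2 ± 1.27 FPKM in Mito_T and 76.1 ± 6.83 and 75.7 ± 4.02 FPKM in Ctrl.

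Of the genes that form or break down IP3 or regulate its receptors, 0 of 21 tested were called, 3 had an unadjusted p under 0.05 and the median log2 change was −0.02. Plcb3, a phospholipase C, was at 19.3 ± 0.302 FPKM in Mito_T and 16.4 ± 0.679 FPKM in Ctrl (limma adjusted p = 0.131). Mrvi1, a receptor-associated substrate of cyclic GMP kinase, was at 1.27 ± 0.0278 FPKM in Mito_T and 0.852 ± 0.203 FPKM in Ctrl (limma adjusted p = 0.245). The third was lower: Ahcyl2, a relative of the IP3 receptor-binding protein IRBIT, named after its values were seen, was at 1.47 ± 0.0693 FPKM in Mito_T and 2.47 ± 0.774 FPKM in Ctrl (limma adjusted p = 0.251). Gna11, a G protein that activates phospholipase C, was at 32.0 ± 1.68 FPKM in Mito_T and 33.2 ± 1.40 FPKM in Ctrl, and Plcg1, the phospholipase C of receptor kinases, at 27.0 ± 3.34 FPKM in Mito_T and 28.4 ± 2.31 FPKM in Ctrl.

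Downstream of calcium entry, calcineurin and NFAT had 0 of 18 tested genes called, 3 with an unadjusted p under 0.05 and a median log2 change of 0.01. Rcan1, an inhibitor of calcineurin whose transcription NFAT is known to raise, was at 14.7, 15.0 and 15.7 FPKM in Mito_T, against 17.5, 18.2 and 17.5 FPKM in Ctrl. The groups did not overlap, and the log2 change of −0.21 (SE 0.05) had a limma adjusted p of 0.134. Ppp3r1, the regulatory subunit of calcineurin, was at 27.4 ± 0.580 FPKM in Mito_T and 30.6 ± 0.396 FPKM in Ctrl (limma adjusted p = 0.198). The third gene lay in the other direction: Rcan2, the paralog of Rcan1, named after its values were seen, had 6.45, 6.22 and 6.29 FPKM in Mito_T, against 5.77, 5.64 and 5.16 FPKM in Ctrl (limma adjusted p = 0.295). The calmodulin genes Calm2 and Calm3 were at 222 ± 17.9 and 176 ± 2.54 FPKM in Mito_T and 234 ± 24.2 and 176 ± 4.55 FPKM in Ctrl.

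**Figure D5:**
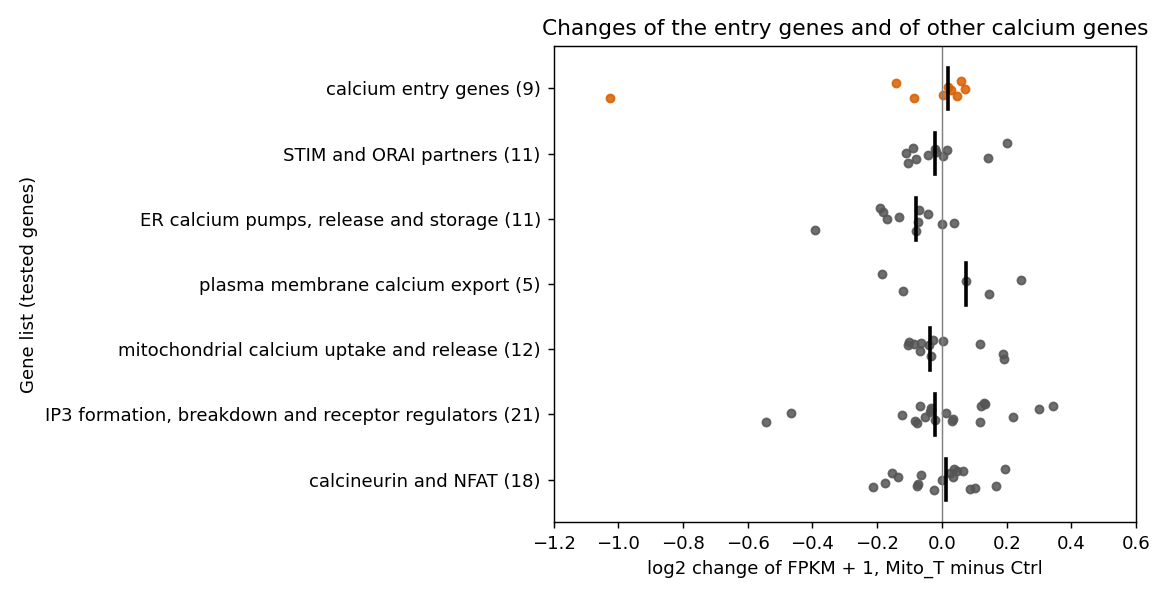
Log2 change of FPKM + 1 (horizontal axis, Mito_T minus Ctrl) of each tested gene in the set (orange) and in 6 of the lists of calcium genes (grey), with the number of tested genes in brackets and the median as a black line; the TRPC list is not drawn since none of its genes was tested. Orai1 stands at −1.03, and the listed genes lie between −0.54 and 0.34.

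Genes with a pattern close to that of Orai1 included Prr9, Sema3f, Chmp3 and Golm1. Likeness was measured as the root mean square difference of log2 values over the 6 libraries, each gene centred on its own mean. The differences were 0.10 for Prr9, 0.12 for Sema3f, 0.15 for Chmp3 and 0.16 for Golm1, and the median over all genes tested was 0.53. A gene with equal values in all 6 libraries would differ from Orai1 by 0.52, so the median mostly restates the change of Orai1 itself. Sema3f, which encodes a secreted semaphorin, had 1.98, 2.39 and 2.16 FPKM in Mito_T, against 5.43, 4.87 and 4.58 FPKM in Ctrl. In all 4 genes every Mito_T library was under every Ctrl library. This follows from picking them for likeness to Orai1, whose values chose the set, and is no separate result. The likeness is a description over 6 libraries with no test.

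In the marker lists of cell types, single genes carried the differences between the summed levels, where 1.12% of all genes tested were called. Of 12 fibroblast and mural cell markers, 7 were under 1 FPKM in every library, and the summed level was 164 to 172 FPKM in Mito_T and 217 to 238 FPKM in Ctrl. Its collagen gene Col1a1, at 81.9 to 87.5 FPKM in Mito_T and 135 to 140.3 FPKM in Ctrl, was the 1 of 5 tested members called, and without it the sum was 81.6 to 90.1 FPKM in Mito_T and 79.8 to 99.8 FPKM in Ctrl. Of 16 endothelial markers, 9 were under 1 FPKM in every library, with a sum of 162 to 175 FPKM in Mito_T and 141 to 148 FPKM in Ctrl and Cd34 as the 1 of 7 tested members called, higher, and without it the sum was 83.2 to 92.7 FPKM in Mito_T and 80.7 to 89.9 FPKM in Ctrl. Of 12 astrocyte markers, 7 were under 1 FPKM in every library and Aqp4, Gjb6 and Sox9 were listed at 0 throughout, with a sum of 79.5 to 84.1 FPKM in Mito_T and 63.6 to 103 FPKM in Ctrl and 0 of 4 tested members called. Of 8 microglial markers, 7 were under 1 FPKM in every library, with Ptprc, P2ry12 and C1qa listed at 0, and the sum of 182 to 208 FPKM in Mito_T and 224 to 272 FPKM in Ctrl came almost wholly from Tmem119, the 1 member tested, which was not called. The part of these markers in the lower level of Orai1 was not tested.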

How the data were processed

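RNA from 6 bEnd.3 libraries, 3 Mito_T and 3 Ctrl, was made into stranded mRNA libraries and sequenced, per the labels' protocols. Each file deposited by the authors pairs 55335 gene identifiers with 1 value. The unit is unnamed in the headers, and FPKM was inferred from the deposited numbers: the columns sum to 281433 to 297838, and in genes with 1 transcript the product of value and exonic length piles up at steps of a fixed size. The submitters' processing notes name STAR 2.5.3a, StringTie 1.3.1c, FastQC 0.11.5 and the build GRCm38 (mm10), without roles. The step size gave the depth. Only 22.6% to 24.8% of low products were within 0.02 of whole steps, so reads were not recovered and no count test was run. Names and positions came from GENCODE M21, which matched 55154 identifiers.

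In R 4.3.3, limma 3.58.1 was fitted to log2(FPKM + 1) of genes that reached 1 FPKM in 3 or more libraries, a scale which understates changes of low genes, with group as the only term and empirical Bayes with trend and robust options. P-values were two-sided and adjusted by the Benjamini-Hochberg method across the 12639 genes. The code was tested on simulated data. The members and lists were chosen with earlier results of these data known. Named genes were the 9 members, called list members, the 2 most abundant and the 2 with the smallest p of each list, 2 protein-coding neighbours on each side of Orai1 and the 5 genes nearest to its pattern, leaving out predicted genes; some of these are not reported here. Alternatives were a pseudocount of 0.1 or 0.01, unfiltered genes, genes averaging 5 FPKM or more, scaling by a trimmed mean of M values (TMM), quantile normalization, TPM, plain empirical Bayes, a replicate block and omission of each library.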

Additional observations from a re-analysis of the deposited data

How the results depend on the processing

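The log2 change of Orai1, −1.03, was −1.13 at a pseudocount of 0.01 and −1.11 to −0.97 with 1 library left out. Its direction was the same in all 15 other settings, which is a description only. The groups of Orai1 do not overlap, so another pseudocount or filter, or the omission of a library, could not reverse it. The count of called genes, 141, was 13 with no filter, 56 with the replicate block and 15 to 84 with 1 library left out, namely 15, 16 and 28 without Mito_T replicates 1, 2 and 3 and 84, 21 and 84 without Ctrl replicates 1, 2 and 3, and the cause was not tested. No label says whether same-numbered libraries share a culture, so the replicate block is an alternative only. Deviations of same-numbered libraries correlated at 0.102, 0.046 and 0.3 over genes for replicates 1, 2 and 3. The 0.3 of Mito_T 3 with Ctrl 3 was the highest of all pairs, and Mito_T 3 gave −0.177 with Ctrl 1 and −0.153 with Ctrl 2. The library Mito_T 1 correlated best with Ctrl 2, at 0.123. Whether the libraries were paired was not tested. None of the other 8 members was called in any of the 15 settings, where the smallest limma adjusted p was 0.312, and no list gained a called gene. Values near 0 changed sign: Orai2 was −0.0039 with quantile normalization and Calm3 0.011 with TMM scaling. With 1 library left out, log2 changes spanned −0.0856 to 0.0794 for Orai2, −0.0101 to 0.0679 for Stim1, −0.194 to 0.029 for Stim2, −0.0586 to 0.0935 for Itpr1, −0.0052 to 0.32 for Atp2b1, −0.0194 to 0.0177 for Calm3, −0.0704 to 0.0039 for Ghitm, −0.0719 to 0.116 for Pdia3, −0.146 to 0.0237 for Plcg1 and −0.114 to 0.0113 for Vdac1. The mean filter of 5 FPKM gave no value for genes under it.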

Other observations

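Calcium genes under the filter are named here with their values already known. Of the 41 listed genes not tested, 39 were under 1 FPKM in every library. Cracr2a, which encodes a calcium-binding regulator of STIM1 and ORAI1, had 1.09, 0.966 and 0.945 FPKM in Mito_T, against 0.624, 0.652 and 0.565 FPKM in Ctrl, so that all Mito_T libraries were higher. Rnf170, a ubiquitin ligase of IP3 receptors, had 0.526, 0.539 and 0.542 FPKM in Mito_T, against 2.09, 0.776 and 0.635 FPKM in Ctrl, so that all Mito_T libraries were lower. Of the 41 genes, 3 were higher and 2 lower in Mito_T without overlap, where 21.0% of the genes tested did not overlap in either direction, and no test was made of genes under the filter. All 7 TRPC channel genes were under 1 FPKM in every library, with Trpc1 the highest at 0.624, 0.615 and 0.628 FPKM in Mito_T and 0.515, 0.551 and 0.561 FPKM in Ctrl. Mcub, the inhibitory paralog of Mcu, had 0.380, 0.259 and 0 FPKM in Mito_T and 0.178, 0.138 and 0 FPKM in Ctrl, with a value of 0 in 1 library of each group.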
